A study of Mus musculus with 16 samples.

Results

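Macrophages of the pericardial cavity, the fluid space around the heart, were compared with those of the pleural cavity, the space around the lungs. Each group had 4 libraries, together 8 of the 16 of the series. Libraries were taken by their labelled source, and no measured value chose them. The pericardial and pleural cells came from cavity lavages of C57BL/6 mice 8 weeks of age, with no treatment named, and were sorted by flow cytometry straight into TRIzol for total RNA. Peritoneal lavage macrophages and heart macrophages of the same strain and age, 4 libraries each, gave the levels in another cavity and in tissue and shared the estimate of spread. The sort gates, the sex of the mice and whether a library is 1 mouse or a pool are not given in the labels. Nothing in them says that the libraries came from separate mice, so p-values measure the spread between libraries, which may be technical. Values are RPKM, a read number divided by transcript length and by the library's read total. Of 24981 genes, 10500 with an RPKM of 1 or more in at least 4 of the 8 libraries were tested. Differences are log2 folds, pericardial minus pleural, of RPKM + 0.5. In bulk RNA of this kind, fewer cells of a type and less RNA per cell cannot be told apart.

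The pericardial, pleural and peritoneal cavities are lined by mesothelium and hold free-floating macrophages. In mice the main population, large cavity macrophages, depends on the transcription factor GATA6, which retinoic acid sustains, and carries ICAM2 and high F4/80 (Adgre1). A smaller population, renewed from monocytes, carries CCR2 and MHC class II. Immediate early genes such as Fos and Jun are transcribed within minutes of many stimuli from promoters that need no new protein. Their products pair as the AP-1 transcription factor, and feedback genes such as Zfp36 and Dusp1 then limit the response by destroying short-lived mRNA or silencing kinases.

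The pericardial libraries had 40886702 to 60450274 alignments and the pleural ones 41709634 to 61340862. Across all tested genes the populations were nearly alike: the correlation of log2 values averaged 0.983 over pairs made of a pericardial and a pleural library, 0.983 over pericardial pairs and 0.988 over pleural pairs. Pericardial library 5 stood apart from the other pericardial libraries. Its RPKM total was the lowest of the 8, at 334803, and its summed RPKM over 1492 olfactory, vomeronasal and taste receptor genes, which are best known from sensory cells although macrophages use some of them, was the highest. The sum is used here as a stand-in for reads outside the main macrophage transcripts, and whether it measures them was not tested. That sum was 62.1, 46.4, 49.9 and 123 in pericardial libraries 2 to 5, against 93.8, 73.2, 80.5 and 109 in pleural libraries 2 to 5. Globin RNA, the product of red cells, also varied: the 6 adult globin genes summed to 1116, 647, 191.9 and 86.6 RPKM in the pericardial libraries, against 103, 100.4, 105 and 226 RPKM in the pleural libraries. In the peritoneal libraries this sum was at most 4.87 RPKM. The 6 are not separate measures: Hbb-b2 and Hbb-bt had equal means in the pericardial and in the pleural group. The globin sum may thus hold some reads more than once.

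Both groups carried the markers of large cavity macrophages, and no marker was called different. Gata6 averaged 40.8 ± 8.52 RPKM in pericardial macrophages and 34.1 ± 2.19 RPKM in pleural macrophages (SD, n = 4 each), against 0.841 ± 0.526 in heart macrophages (SD, n = 4). Its log2 fold, pericardial minus pleural, was 0.23 with a 95% interval of -0.23 to 0.69. Icam2, an adhesion molecule of these cells, averaged 538 ± 79.0 RPKM in pericardial and 497 ± 50.2 RPKM in pleural macrophages (SD, n = 4 each), with a log2 fold of 0.11 and an interval of -0.30 to 0.52. Groups overlapped for both genes. Adgre1, Csf1r, the receptor for the macrophage growth factor CSF1, and Itgam, an integrin chain, had log2 folds of 0.17, 0.26 and 0.17. Timd4, a phosphatidylserine receptor of long-lived resident macrophages, averaged 155 ± 22.1 RPKM in pericardial and 148 ± 41.7 RPKM in pleural macrophages (SD, n = 4 each). Rarb, a retinoic acid receptor gene, and Prg4, which encodes lubricin, had intervals of -0.20 to 0.47 and -0.12 to 0.84. All of these intervals include 0, which does not show that the levels are equal: each also holds values well away from 0.

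Of the 36 genes on the large cavity macrophage list, all passed the filter, none was called in either direction, and 34 had a log2 fold above 0, with a median of 0.14 (0.03 with every library scaled to an equal RPKM total). Below 0 were Marco, a scavenger receptor, at -0.48, and Saa3 at -0.05. Marco averaged 54.0 RPKM in pericardial and 73.7 RPKM in pleural macrophages. Over all 10500 genes the median was 0.09 and 76.8% of folds were above 0, against a median of -0.01 at equal RPKM totals, a shift of 0.10. Values of this size in a list are thus near those of all genes. The members with the highest means over the 8 libraries, Slpi, a protease inhibitor, and Fn1, fibronectin, averaged 5299.8 ± 657 and 2807 ± 418 RPKM in pericardial macrophages, against 4781 ± 465 and 2065 ± 461 RPKM in pleural macrophages (SD, n = 4 each). Their log2 folds were 0.15 and 0.46, with adjusted p of 0.96 and 0.96 in limma. Markers of the CCR2+ population were present in both groups too. Ccr2, the chemokine receptor that brings monocytes into tissue, had 17.4, 25.6, 26.2 and 18.2 RPKM in pericardial libraries 2 to 5, against 11.5, 13.6, 19.3 and 18.8 RPKM in pleural libraries 2 to 5. The groups overlapped, and its log2 fold of 0.46 had an unadjusted p of 0.0452 and an adjusted p of 0.96.

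MHC class II genes varied within the groups more than between them. H2-Aa, a class II alpha chain, had 132, 298, 193 and 92.9 RPKM in pericardial libraries 2 to 5, against 103, 382, 123 and 123 RPKM in pleural libraries 2 to 5. Library 3 was the highest of each group. Cd74, the invariant chain that guides class II molecules, had a log2 fold of 0.05 with an interval of -0.96 to 1.06, or of -0.29 to 0.38 with the replicate number as a block. Arg1, arginase 1, known as a peritoneal macrophage gene, was low in both: 12.7 ± 4.40 RPKM in pericardial and 9.90 ± 1.88 RPKM in pleural macrophages, against 167 ± 23.4 RPKM in peritoneal macrophages (SD, n = 4 each).

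**Figure D1:**
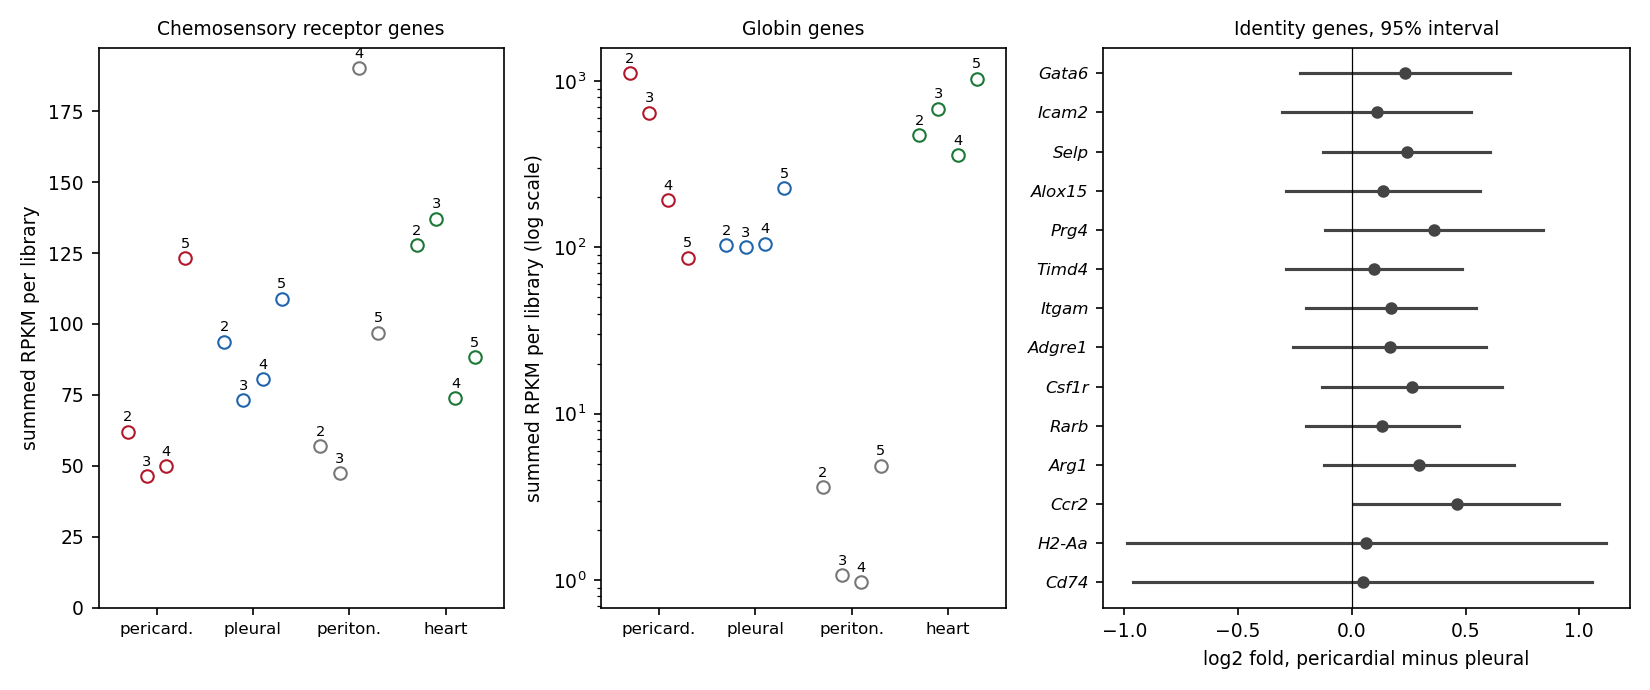
Left and middle: summed RPKM of 1492 chemosensory receptor genes (linear axis) and of the globin genes (log axis) in each library, marked with its replicate number. Right: log2 fold, pericardial minus pleural, of 14 identity genes with limma's 95% interval; the intervals of all but Ccr2 cross 0, and pericardial library 5 has the highest chemosensory sum of the 8 cavity libraries compared.

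With all 16 libraries in the fit, 1 gene was called higher in pericardial macrophages, Fos, and 1 lower, the microRNA gene Mir3064 (0.00952% of the genes tested in each direction, limma, Benjamini-Hochberg adjusted p under 0.05). At an unadjusted p under 0.05, 64 genes were higher (0.61%) and 112 lower (1.07%). All 4 pericardial libraries lay above all 4 pleural libraries for 135 genes (1.29%) and below them for 63 (0.6%). The replicate numbers in the labels paired the libraries: same-numbered pericardial and pleural libraries deviated from their group means together for every number, as did some differently numbered ones. With the number as a block in the 8 libraries, 23 genes were called higher (0.219%) and 92 lower (0.876%). Of the 23 higher genes, 18 stood on the lists of immediate early factors, feedback regulators, chemokines and cytokines, or heat shock proteins. Of the 10500 genes tested, these lists held 20, 27, 19 and 29. The lists were chosen with earlier results of these data known, so this overlap may be partly built in. It is not independent evidence of a shared programme. All pericardial libraries lay above all pleural ones for 15 of the 23. These 23 genes were chosen after their values were seen.

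The paired counts moved with the libraries and with scaling. Without both libraries numbered 2, the paired fit called 15 genes higher, 13 of them among the 23, and 12 lower. Without those numbered 3, 4 or 5 it called 34, 36 or 386 higher and 197, 241 or 445 lower, and 21, 21 or 23 of the 23 higher genes were among them. With every library scaled to an equal RPKM total the paired fit called 4 genes higher, Fos, Jun, Ier3 and Zfp36, and none lower. Median-ratio scaling called these 4 and Folr2, and none lower. With the log2 chemosensory sum as a covariate, Fos and Jun were called higher and none lower. The covariate leaves fewer residual degrees of freedom than the 3 of the paired fit, so a call lost there says little. Fos and Jun were thus called in all 7 of these alternatives to the fit of the 8 libraries. With the number as a block in all 16 libraries, where the spread comes from the peritoneal and heart libraries too, only Fos was called higher and only Mir3064 lower, and Jun was not called. The other 22 of the 23 higher genes and the other 91 of the 92 lower ones were not called there.

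Fos, which encodes the AP-1 subunit c-Fos, had 40.5, 50.9, 65.2 and 43.0 RPKM in pericardial libraries 2 to 5, against 14.1, 12.6, 13.02 and 12.3 RPKM in pleural libraries 2 to 5. The lowest pericardial library was well above the highest pleural one, and the pleural libraries lay close together. Its mean was 49.9 ± 11.1 RPKM in pericardial and 13.02 ± 0.784 RPKM in pleural macrophages (SD, n = 4 each), a log2 fold of 1.87 ± 0.25 (SE), or 3.67-fold, with an adjusted p of 0.00387 (limma). It was higher in 4 of 4 numbered pairs, by 1.49, 1.97, 2.28 and 1.76 log2 units in pairs 2 to 5, with an adjusted p of 1.3e-06 in the paired fit. Fos was called in 20 of 21 alternative fits, its log2 fold ranging over them between 1.65 and 1.97. The exception had no filter on low values, where 22499 genes were tested and its adjusted p was 0.0507. Jun, which encodes the AP-1 partner c-Jun, had 31.1, 23.8, 20.0 and 22.6 RPKM in pericardial libraries 2 to 5, against 13.6, 9.52, 9.25 and 10.6 RPKM in pleural libraries 2 to 5. Again the groups did not overlap. Its log2 fold was 1.14 ± 0.23 (SE), with an adjusted p of 0.129 across 16 libraries and 3.9e-05 in the paired fit, where the 4 pairs differed by 1.16, 1.28, 1.07 and 1.06. The Jun pairs lay close together.

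The promoters of the 4 genes called higher with the replicate block at equal RPKM totals are shown, from 250 bases before to 50 bases after the annotated start (RefSeq, GRCm38.p6), 5′ to 3′ on the strand of the gene. Capitals mark matches, on either strand, to letters searched: TGACG (the core of the cAMP response element), TGACATCA (an AP-1-like element described in the Jun promoter), GAANNTTC (a pair of heat shock element units), CCGCCC (the core of a GC box) and TATAAA.
Fos, chr12:85473640-85473939, plus strand: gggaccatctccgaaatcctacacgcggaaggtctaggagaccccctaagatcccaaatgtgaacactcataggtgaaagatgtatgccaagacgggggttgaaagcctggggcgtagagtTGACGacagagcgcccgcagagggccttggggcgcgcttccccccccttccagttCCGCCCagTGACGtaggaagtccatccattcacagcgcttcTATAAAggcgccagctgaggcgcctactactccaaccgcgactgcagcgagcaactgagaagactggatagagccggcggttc
Jun, chr4:95052173-95052472, minus strand: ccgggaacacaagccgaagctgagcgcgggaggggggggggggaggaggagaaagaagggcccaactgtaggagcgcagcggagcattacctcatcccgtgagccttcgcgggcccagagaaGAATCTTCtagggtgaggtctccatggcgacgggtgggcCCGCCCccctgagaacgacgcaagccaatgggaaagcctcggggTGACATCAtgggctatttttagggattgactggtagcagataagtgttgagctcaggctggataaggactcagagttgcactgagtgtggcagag
Zfp36, chr7:28379179-28379478, minus strand: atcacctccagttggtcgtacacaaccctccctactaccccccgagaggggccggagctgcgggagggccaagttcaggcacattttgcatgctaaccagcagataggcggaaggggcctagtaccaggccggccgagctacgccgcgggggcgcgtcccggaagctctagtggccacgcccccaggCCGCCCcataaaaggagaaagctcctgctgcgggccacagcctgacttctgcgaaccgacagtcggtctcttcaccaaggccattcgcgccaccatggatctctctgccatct
Ier3, chr17:35821463-35821762, plus strand: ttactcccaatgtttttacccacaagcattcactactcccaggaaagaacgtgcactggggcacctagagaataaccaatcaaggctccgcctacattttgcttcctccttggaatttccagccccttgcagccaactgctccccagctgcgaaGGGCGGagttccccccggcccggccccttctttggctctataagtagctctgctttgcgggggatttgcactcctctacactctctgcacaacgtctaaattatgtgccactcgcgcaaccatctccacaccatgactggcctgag
Of the 23 genes, 15 matched the RefSeq table, with 16 promoters. TGACG was in 5 of the 16 (31.2%), those of Cxcl1, Fos, Junb, Nr4a1 and Ppp1r15a, against 20.8% of all 32851 promoters of this length. CCGCCC was in 10 of the 16 (62.5%), against 35.7% of all promoters. GAANNTTC was in 3 (18.8%), Hspa1a, Hspa1b and Jun, against 7.86% of all. TATAAA was in 3 (18.8%), Fos, Junb and Ppp1r15a, against 13.6% of all. The full AP-1 letters TGACTCA were in 1, Folr2 (5.2% of all promoters), TGACATCA in 1, Jun (3.62%), and the full cAMP response element TGACGTCA, which holds TGACG, in 1, Ppp1r15a (1.79%). A match is a description of the letters and not evidence of a bound factor.

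The immediate early list held 27 transcription factors and related genes, 20 of which passed the filter, and the pericardial libraries tended to the higher side across it. With the replicate block 7 of the 20 were called higher and none lower, set against 0.219% and 0.876% of all genes, and across 16 libraries 1 was, Fos. All 20 log2 folds were above 0, and the median was 0.27, or 0.17 at equal RPKM totals, where 18 were above 0. Junb, another AP-1 subunit, had 229, 195, 195 and 139.7 RPKM in pericardial libraries 2 to 5, against 108, 103, 135 and 103 RPKM in pleural libraries 2 to 5. The groups did not overlap, though pericardial library 5 and pleural library 4 nearly met. The log2 fold was 0.74 ± 0.21 (SE), with an adjusted p of 0.0197 in the paired fit and 0.96 across 16 libraries. Ier2 and Ier5, immediate early response genes, ranged over 73.5 to 105 and 22.6 to 42.1 RPKM in pericardial libraries, against 53.2 to 71.3 and 16.4 to 29.4 RPKM in pleural libraries. Ier5 overlapped between the groups and was higher in each of the 4 pairs, by 0.51, 0.70, 0.45 and 0.54. Egr1, a zinc finger factor, and Nr4a1, an orphan nuclear receptor, were lower-expressed members, at 4.67 ± 2.91 and 6.96 ± 1.31 RPKM in pericardial macrophages, against 2.94 ± 1.96 and 4.47 ± 1.62 RPKM in pleural macrophages (SD, n = 4 each). The groups overlapped for both genes, and the paired adjusted p was 0.0308 and 0.0282. Each of these 5 genes had an adjusted p of 0.161 or more in the paired fit at equal RPKM totals. Not every member moved: Atf3, a stress-induced factor, had 14.3 ± 2.97 RPKM in pericardial and 12.7 ± 1.53 RPKM in pleural macrophages (SD, n = 4 each) and a paired adjusted p of 0.556, and Klf2, an abundant zinc finger member of the list, had a log2 fold of 0.07 with an interval of -0.41 to 0.54.

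**Figure D2:**
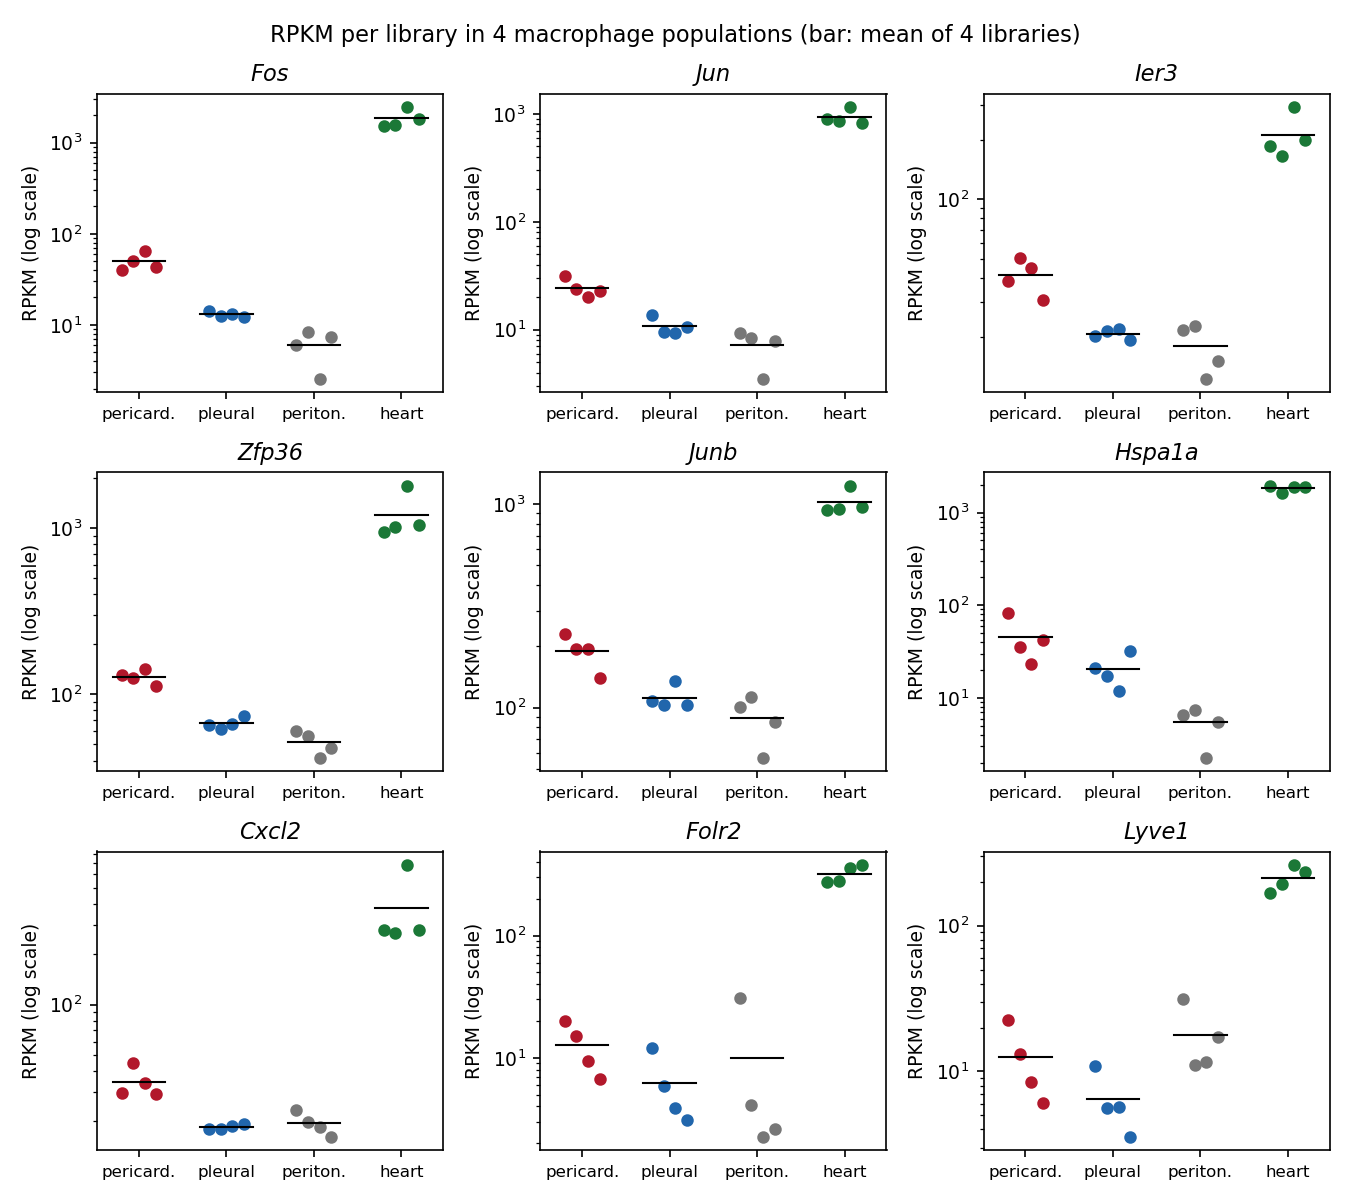
RPKM on a log axis in each library of the pericardial, pleural, peritoneal and heart groups for 9 genes, libraries 2 to 5 from left to right, with a bar at the mean of 4. Fos, Jun, Ier3, Zfp36, Junb and Cxcl2 have every pericardial library above every pleural one, while Hspa1a, Folr2 and Lyve1 overlap; all 9 are highest in heart macrophages.

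Some regulators of immediate early and inflammatory signalling were also higher in pericardial macrophages. Of the 34 on this list 27 passed the filter, and 5 were called higher and none lower with the block (against 0.219% and 0.876% of all genes): Ier3, Zfp36, Rgs1, Socs3 and Ppp1r15a. None was called across 16 libraries, and the list's median was 0.24, or 0.13 at equal RPKM totals. Zfp36, which encodes tristetraprolin, a protein that triggers decay of cytokine mRNA, had 131, 125, 142 and 112 RPKM in pericardial libraries 2 to 5, against 65.6, 62.2, 66.7 and 73.9 RPKM in pleural libraries 2 to 5. The groups did not overlap. Its log2 fold was 0.92 ± 0.19 (SE), with an adjusted p of 0.00201 in the paired fit and 0.155 across 16 libraries. Ier3, which modulates ERK signalling and cell survival, had 38.6, 50.1, 44.9 and 30.7 RPKM in pericardial libraries 2 to 5, against 20.1, 21.4, 21.9 and 19.4 RPKM in pleural libraries 2 to 5. Here too each pericardial library exceeded every pleural one. Its log2 fold was 0.95 ± 0.21 (SE), with an adjusted p of 0.000925 in the paired fit and 0.2 across 16 libraries.

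Socs3, an inhibitor of cytokine receptor signalling, ranged over 28.1 to 48.8 RPKM in pericardial and 22.4 to 32.5 RPKM in pleural libraries, and its pairs differed by 1.04, 0.52, 0.61 and 0.32. Rgs1, which dampens chemokine receptor signalling through G proteins, and Ppp1r15a, a phosphatase subunit of the stress response, ranged over 6.41 to 8.36 and 6.28 to 8.68 RPKM in pericardial libraries, against 3.62 to 4.72 and 4.97 to 6.12 RPKM in pleural libraries. Rgs1 and Ppp1r15a did not overlap between the groups, and Socs3 did. Dusp1, a MAP kinase phosphatase, was higher in all 4 pericardial libraries, at 146, 148, 182 and 141 RPKM, against 98.2, 94.4, 94.6 and 132 RPKM in the pleural libraries, but missed the threshold in the paired fit with an adjusted p of 0.0569. Pair 5 of Dusp1 differed by only 0.09 log2 units, against 0.57 to 0.94 in the other pairs. Inhibitors of NF-kB were not called: Nfkbia, which holds NF-kB in the cytoplasm, averaged 93.8 ± 18.1 RPKM in pericardial and 90.4 ± 7.41 RPKM in pleural macrophages (SD, n = 4 each), and Tnfaip3, the A20 ubiquitin editor, had a log2 fold of 0.27 with an interval of -0.26 to 0.80.

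**Figure D3:**
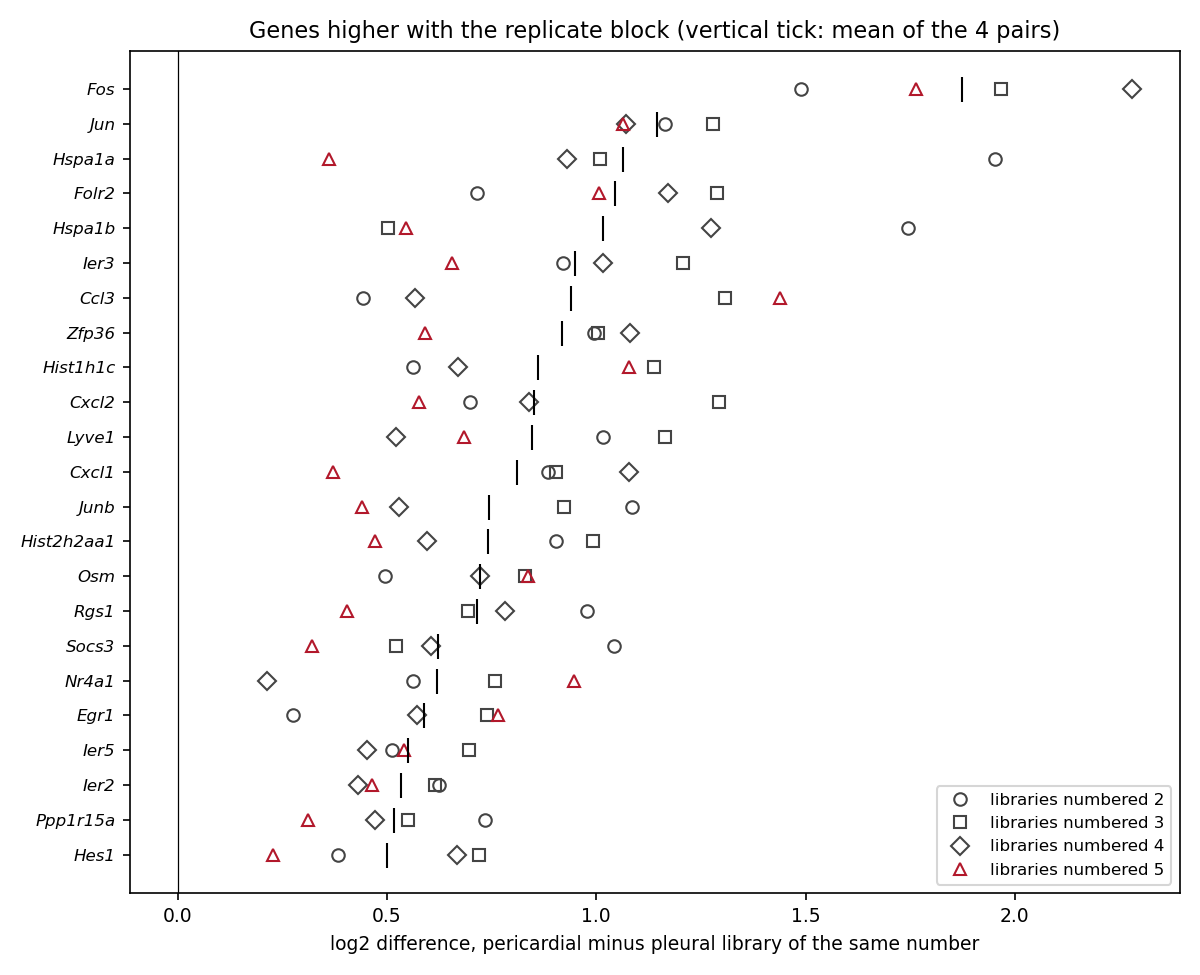
Log2 difference of each pericardial library from the pleural library of the same number, for the 23 genes called higher with the replicate block, with a tick at the mean of the 4 pairs. All 92 differences are above 0, and Fos has the highest mean at 1.87; that the pairs of these genes lie above 0 follows from how they were chosen.

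Chemokines that recruit neutrophils and monocytes were among the higher genes, at low to moderate levels. Of 39 listed chemokines and cytokines 19 passed the filter, and with the block 4 were called higher and none lower (against 0.219% and 0.876% of all genes): Cxcl1, Cxcl2, Ccl3 and Osm. The median over the 19 was 0.18, or 0.08 at equal RPKM totals. Cxcl2, a ligand of the neutrophil receptor CXCR2, had 29.5, 44.9, 34.0 and 29.1 RPKM in pericardial libraries 2 to 5, against 18.0, 18.0, 18.8 and 19.3 RPKM in pleural libraries 2 to 5. The pleural libraries were nearly equal and all pericardial libraries were above them. Its log2 fold was 0.85 ± 0.24 (SE), with an adjusted p of 0.00358 in the paired fit and 0.96 across 16 libraries. Cxcl1, another CXCR2 ligand, averaged 6.63 ± 1.83 RPKM in pericardial and 3.56 ± 0.942 RPKM in pleural macrophages (SD, n = 4 each). Ccl3, a macrophage inflammatory protein gene, averaged 3.03 ± 0.632 RPKM in pericardial and 1.37 ± 0.455 RPKM in pleural macrophages (SD, n = 4 each). Osm, which encodes the cytokine oncostatin M, averaged 7.26 ± 1.05 RPKM in pericardial and 4.22 ± 0.733 RPKM in pleural macrophages (SD, n = 4 each). None of these 3 overlapped between the groups, and their log2 folds were 0.81, 0.94 and 0.72. At equal RPKM totals the paired adjusted p was 0.0638 for Cxcl2, 0.125 for Cxcl1, 0.54 for Ccl3 and 0.238 for Osm. The most abundant chemokines showed no call: Ccl6 and Cxcl13, a B cell attractant, averaged 960.2 ± 268 and 364 ± 129 RPKM in pericardial macrophages, against 800.2 ± 118 and 329 ± 154 RPKM in pleural macrophages (SD, n = 4 each). Ccl2, the ligand of CCR2, had a log2 fold of 0.45 with an interval of -0.05 to 0.96.

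Among 30 heat shock proteins and co-chaperones, 29 of which passed the filter, 2 were called higher with the block and none lower (against 0.219% and 0.876% of all genes): the inducible HSP70 genes Hspa1a and Hspa1b. They are near-identical, so how reads were shared between them is uncertain. Hspa1a had 82.8, 35.3, 23.2 and 41.7 RPKM in pericardial libraries 2 to 5, against 21.0, 17.3, 11.9 and 32.4 RPKM in pleural libraries 2 to 5. Hspa1b had 137, 55.9, 32.5 and 65.1 RPKM in pericardial libraries 2 to 5, against 40.5, 39.3, 13.2 and 44.5 RPKM in pleural libraries 2 to 5. Groups overlapped for both, pericardial library 2 was the highest of the 8 for each, and each pair was higher on the pericardial side. The log2 folds were 1.06 and 1.02, with an adjusted p of 0.0116 for each in the paired fit and of 0.358 for Hspa1a and 0.43 for Hspa1b at equal RPKM totals. The constitutive chaperones had no such difference called: Hspa8 and Hsp90ab1 averaged 828 ± 143 and 547 ± 80.6 RPKM in pericardial macrophages, against 709 ± 178 and 493 ± 100.5 RPKM in pleural macrophages (SD, n = 4 each). Dnajb1, an inducible co-chaperone of HSP70, had a log2 fold of 0.21 with an interval of -0.22 to 0.65. The list's median of 0.16, or 0.05 at equal RPKM totals, was near that of all genes.

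Folr2, a folate receptor, and Lyve1, a hyaluronan receptor, mark long-lived resident macrophages of the heart and other tissues in mice. Folr2 had 20.0, 15.1, 9.41 and 6.72 RPKM in pericardial libraries 2 to 5, against 12.02, 5.90, 3.90 and 3.09 RPKM in pleural libraries 2 to 5. Lyve1 had 22.4, 13.2, 8.45 and 6.04 RPKM in pericardial libraries 2 to 5, against 10.8, 5.61, 5.73 and 3.57 RPKM in pleural libraries 2 to 5. For both genes the groups overlapped, library 2 was the highest of each group, library 5 the lowest, and each pericardial library exceeded the pleural library of its number. The pairs differed by 0.71, 1.29, 1.17 and 1.01 log2 units for Folr2 and by 1.02, 1.16, 0.52 and 0.68 for Lyve1. With the block the log2 fold of Folr2 was 1.05 (95% interval 0.81 to 1.28, adjusted p = 0.000291) and that of Lyve1 0.85 (95% interval 0.60 to 1.09, adjusted p = 0.00237). Without the block the intervals were -0.08 to 2.17 and 0.11 to 1.59, with an adjusted p of 0.96 for each. At equal RPKM totals the paired adjusted p was 0.0636 for Folr2 and 0.125 for Lyve1.

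Of 30 genes on the resident macrophage list 26 passed the filter, and with the block 2 were called higher, Folr2 and Lyve1, and none lower (against 0.219% and 0.876% of all genes). The median over the 26 was 0.18, or 0.08 at equal RPKM totals. Of the 26 log2 folds 23 were above 0, or 18 at equal RPKM totals. The lowest was that of Cx3cr1, a chemokine receptor, at -0.63. Its means were 1.35 RPKM in pericardial and 2.19 RPKM in pleural macrophages. Mrc1, a mannose receptor, averaged 6.78 ± 1.54 RPKM in pericardial and 5.63 ± 0.897 RPKM in pleural macrophages (SD, n = 4 each), and Cd163, a haemoglobin scavenger receptor, 5.87 ± 1.31 RPKM in pericardial and 4.79 ± 0.853 RPKM in pleural macrophages (SD, n = 4 each). Neither was called, at log2 folds of 0.23 and 0.26. F13a1, the coagulation factor XIII A chain, and Cbr2, a carbonyl reductase, had larger log2 folds of 0.57 and 0.39, with paired adjusted p of 0.178 and 0.345. The most abundant members, Pf4, a platelet-type chemokine, and Fcna, a ficolin, had log2 folds of 0.16 and 0.09. The globin sum, given above, was likewise highest in library 2 and lowest in library 5 of the pericardial group, but in the pleural group it was highest in library 5. Pericardial Folr2 and globin levels thus ran in the same library order, pleural ones did not, and the part of blood or heart tissue in the Folr2 and Lyve1 difference was not tested.

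The remaining higher genes of the paired fit were Hist1h1c and Hist2h2aa1, histone genes with near-identical family members among which reads may be shared, and Hes1, a Notch target. Hist1h1c averaged 13.2 ± 0.933 RPKM in pericardial and 7.177 ± 1.73 RPKM in pleural macrophages, Hist2h2aa1 10.9 ± 0.591 RPKM in pericardial and 6.37 ± 1.05 RPKM in pleural macrophages, and Hes1 11.9 ± 1.64 RPKM in pericardial and 8.28 ± 1.09 RPKM in pleural macrophages (SD, n = 4 each). The groups did not overlap for any of these 3. The paired adjusted p was 0.00201 for Hist1h1c, 0.00479 for Hist2h2aa1 and 0.0444 for Hes1. Retnla, a gene of alternatively activated macrophages, and Lrp1, a scavenger receptor, also had all pericardial libraries above all pleural ones, 676 to 1235 and 74.1 to 107 RPKM in pericardial libraries, against 571 to 640.2 and 58.7 to 72.6 RPKM in pleural libraries, but their paired adjusted p was 0.062 and 0.0569.

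Mir3064, the gene of the microRNA miR-3064, was the gene called lower in pericardial macrophages across 16 libraries. Its hairpin lies at chr11:106782693-106782759 on the minus strand (GRCm38.p6), inside the gene of the RNA helicase DDX5 (chr11:106780355-106789185) and on the same strand. In the protein-coding transcript Ddx5-201 (GENCODE vM21) 1 of its 67 bases is exonic and the others are intronic, while all 67 are exonic in Ddx5-208, a transcript marked for nonsense-mediated decay. The mature sequences are shown because they are the product the gene is named for, with the seed, bases 2 to 8, in capitals (RefSeq, GRCm38.p6); the libraries measured total RNA and do not show whether mature microRNA was counted.
mmu-miR-3064-5p: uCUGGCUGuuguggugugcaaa
mmu-miR-3064-3p: uGCCACACugcaacaccuuaca
Mir3064 had 5.60, 7.42, 6.00 and 8.94 RPKM in pericardial libraries 2 to 5, against 16.1, 27.3, 20.3 and 12.8 RPKM in pleural libraries 2 to 5. All pericardial libraries were below all pleural ones. If RPKM was scaled by the 67 bases of the hairpin and by the alignments given above, these values rest on few reads. Its mean was 6.99 ± 1.52 RPKM in pericardial and 19.1 ± 6.28 RPKM in pleural macrophages (SD, n = 4 each), a log2 fold of -1.36 ± 0.20 (SE), with an adjusted p of 0.00564 (limma) across 16 libraries. It was lower in 4 of 4 pairs, by a log2 difference of -1.44, -1.81, -1.68 and -0.49, with a paired adjusted p of 0.000925. Mir3064 was called in 19 of 21 alternatives: without pericardial library 2 its adjusted p was 0.055, and with no filter on low values 0.0507. In the paired fits at equal RPKM totals and with the chemosensory covariate it was not called, with adjusted p of 0.238 and 0.286. Ddx5 itself averaged 129.7 ± 10.4 RPKM in pericardial and 125 ± 8.39 RPKM in pleural macrophages (SD, n = 4 each), a log2 fold of 0.05 with an interval of -0.33 to 0.43. Peritoneal and heart macrophages had 14.6 ± 2.08 and 16.05 ± 1.92 RPKM of Mir3064 (SD, n = 4 each), so the pericardial group was the lowest of the 4. Against peritoneal macrophages, a comparison that shares the pericardial libraries, its log2 fold was -1.02, with an adjusted p of 0.00854, where 0.39% of genes were called lower.

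Noncoding RNAs were common among the 92 genes lower with the block. By RefSeq biotype 53 were protein coding, 27 long noncoding and 7 microRNA genes, so 58.2% of the 91 with a biotype were protein coding, against 96.1% of the tested genes with one. In 14 of the 92 all pericardial libraries were below all pleural ones, against 63 of all 10500 genes (0.6%). The 92 were chosen by a difference in this direction, so a higher share among them is partly built in. Neat1, the nuclear RNA that builds paraspeckles, had 18.7, 13.2, 17.2 and 26.7 RPKM in pericardial libraries 2 to 5, against 27.1, 35.2, 35.9 and 35.4 RPKM in pleural libraries 2 to 5. Its groups nearly met at pericardial library 5 and pleural library 2. The log2 fold was -0.84 ± 0.19 (SE), with an adjusted p of 0.0137 in the paired fit and 0.2 across 16 libraries. Snhg20, a snoRNA host gene, averaged 19.0 ± 2.36 RPKM in pericardial and 31.7 ± 6.12 RPKM in pleural macrophages (SD, n = 4 each). Rab26os, an antisense transcript, averaged 3.01 ± 0.578 RPKM in pericardial and 6.40 ± 1.38 RPKM in pleural macrophages (SD, n = 4 each), and since no strand setting is given, its reads cannot be told apart from those of its partner. Dancr, a long noncoding RNA, averaged 1.32 ± 0.413 RPKM in pericardial and 2.85 ± 0.692 RPKM in pleural macrophages (SD, n = 4 each). None of the groups overlapped for these 3, and their log2 folds were -0.71, -0.97 and -0.89. Mir5107, a microRNA gene, had 0.328, 0.678, 0.326 and 0.544 RPKM in pericardial libraries 2 to 5, against 3.24, 4.21, 1.37 and 1.298 RPKM in pleural libraries 2 to 5. It passed the filter through its pleural libraries alone, so its difference is given as a description, without a test value. It was nevertheless called with the block, and the 92, the 7 microRNA genes and the shares above include it. Among all tested genes, 3 passed with 4 pleural and 0 pericardial libraries at the minimum RPKM, and none was taken out of these counts. None of the 92 was called in the paired fit at equal RPKM totals, with median-ratio scaling or with the chemosensory covariate.

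In most of the 92, pericardial library 5 lay above the other pericardial libraries and so against the lower call. Without both libraries numbered 5 the paired fit still called 91 of the 92 lower. Without those numbered 2, 3 or 4 it called 9, 88 or 88 of them. In 68 of the 92 pericardial library 5 was over 2 times every other pericardial library. The median RPKM over the 92 genes was 1.69, 1.54, 1.27 and 5.55 in pericardial libraries 2 to 5, against 4.84, 5.04, 2.99 and 5.21 in pleural libraries 2 to 5. Pericardial library 5 also had the highest chemosensory sum. Olfr856-ps1, an olfactory receptor pseudogene, had 93.9, 57.1, 51.9 and 303 RPKM in pericardial libraries 2 to 5, against 227, 176, 135 and 241 RPKM in pleural libraries 2 to 5, and Gm20337, a long noncoding RNA, had 15.8, 14.4, 10.3 and 115 RPKM in pericardial libraries 2 to 5, against 84.0, 72.7, 40.8 and 83.0 RPKM in pleural libraries 2 to 5. Pericardial library 5 was the highest of the 8 for both, so these genes were lower in pericardial libraries 2 to 4 only. Cxcr2, the receptor for CXCL1 and CXCL2 on neutrophils, was among them, with 5.86, 4.64, 3.69 and 24.3 RPKM in pericardial libraries 2 to 5, against 17.7, 18.2, 9.16 and 18.2 RPKM in pleural libraries 2 to 5. So was Xcr1, a receptor of cross-presenting dendritic cells, with 0.960, 0.612, 0.608 and 3.22 RPKM in pericardial libraries 2 to 5, against 2.89, 3.40, 1.61 and 3.09 RPKM in pleural libraries 2 to 5. Their paired adjusted p was 0.0492 and 0.0386, although in pair 5 each was higher on the pericardial side. The Cxcr2 pairs differed by -1.52, -1.86, -1.20 and 0.40 log2 units. Neither Cxcr2 nor Xcr1 was called with the chemosensory covariate, and the other neutrophil and dendritic markers were not called.

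**Figure D4:**
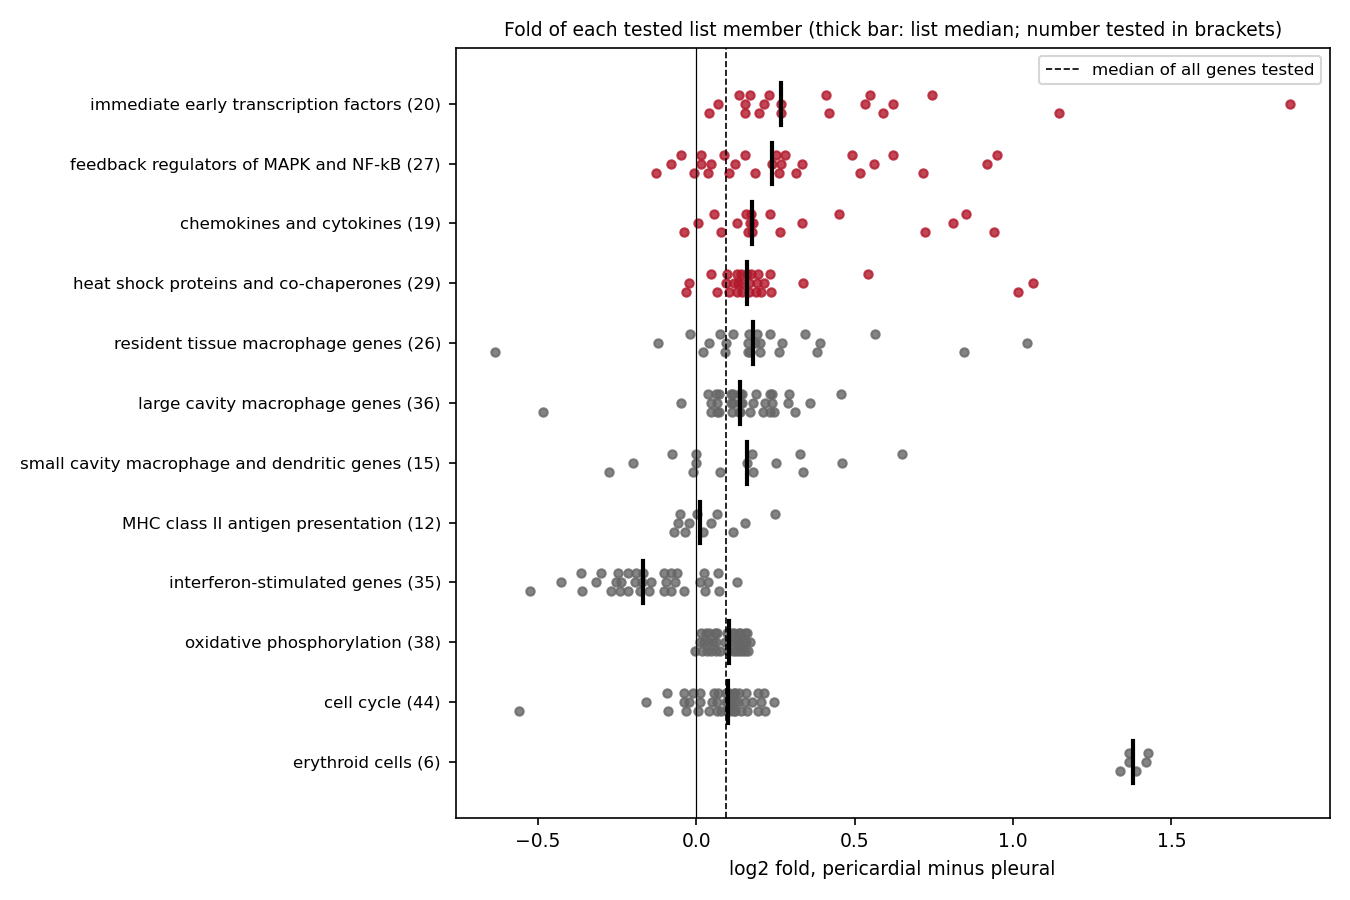
Log2 fold, pericardial minus pleural, of every tested member of 12 gene lists, with a thick bar at the list's median and a dashed line at the median of all 10500 genes (0.09). The first 4 lists (red) have a few members far to the right, led by Fos, and interferon-stimulated genes lie mostly below 0. The 6 erythroid genes, which are not separate measures, lie between 1.34 and 1.43.

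No member of the other programme lists was called in either fit. Interferon-stimulated genes leaned to the pleural side: 7 of 35 log2 folds were above 0 and the median was -0.17, or -0.26 at equal RPKM totals, where 1 was above 0. Individual values were small. Ifitm3, which blocks viral entry, and Bst2, which tethers virions, averaged 1051 ± 281 and 88.8 ± 20.7 RPKM in pericardial macrophages, against 1028 ± 210.4 and 98.8 ± 26.9 RPKM in pleural macrophages (SD, n = 4 each), and the lowest fold of the list, that of Xaf1, was -0.52 with an adjusted p of 0.96. MHC class I loading genes had a median of -0.07 over 23 genes and MHC class II genes of 0.01 over 12, or -0.18 and -0.09 at equal RPKM totals. Growth factor and matrix genes had a median of 0.22 over 25, sterol synthesis genes of 0.18 over 22 and retinoic acid genes of 0.18 over 12. Oxidative phosphorylation genes had a median of 0.10 over 38 genes, which was -0.01 at equal RPKM totals, and cell cycle genes of 0.10 over 44, which was 0.01. Glycolysis, lipid handling, iron and haem handling, phagocytosis, complement, adhesion, coagulation, lysosome, chemokine receptor, Toll-like and C-type lectin receptor, small cavity macrophage, transcription factor and macrophage core lists had medians between 0.11 and 0.17. C1qb and Apoe, abundant complement and lipid transport genes, had intervals of -0.41 to 0.58 and -0.35 to 0.63.

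Markers of other cells were checked as summed RPKM over each list. Red cell genes stood out: the 6 of 13 that passed the filter, all globins, had a median log2 fold of 1.38 with overlapping groups, and none was called. These 6 are not separate measures, since Hbb-b2 and Hbb-bt had the same log2 fold of 1.37. Hbb-b1, a beta globin near-identical to Hbb-bs, had 438, 248, 71.9 and 31.5 RPKM in pericardial libraries 2 to 5, against 42.1, 40.5, 37.6 and 80.6 RPKM in pleural libraries 2 to 5. Pericardial libraries 2 and 3 were the highest of the 8 and pericardial library 5 was the lowest. Without pairing its log2 fold of 1.39 had an adjusted p of 0.96, and with it 0.221. Cardiomyocyte genes summed to 31.0 to 44.8 RPKM in pericardial, 27.9 to 34.6 RPKM in pleural and 349.5 to 729 RPKM in heart libraries. In the cavity libraries most of this sum was Atp2a2, at a mean of 30.8 RPKM in pericardial and 25.5 RPKM in pleural macrophages. B cell genes summed to 26.9 to 79.9 RPKM in pericardial and 35.03 to 81.4 RPKM in pleural libraries. Neutrophil genes summed to 51.7 to 69.1 RPKM in pericardial and 54.0 to 67.9 RPKM in pleural libraries, and T and NK cell genes to 10.4 to 21.2 RPKM in pericardial and 12.5 to 19.3 RPKM in pleural libraries. Most of the neutrophil sum was Csf3r, at means of 41.9 RPKM in pericardial and 42.0 RPKM in pleural macrophages. Cd2 made up most of the T and NK cell sum, at means of 13.4 and 11.5 RPKM. Fibroblast genes summed to 31.0 to 45.7 RPKM in pericardial, 29.4 to 53.9 RPKM in pleural and 195 to 747 RPKM in heart libraries. In the cavity libraries most of the fibroblast sum was Pi16, at a mean of 38.0 RPKM in pericardial and 37.4 RPKM in pleural macrophages. How many such other cells the libraries held was not tested. Mesothelial genes were near 0, at 0.654 to 1.53 RPKM in pericardial and 0.571 to 1.01 RPKM in pleural libraries, with all 10 below 1 RPKM in every one of the 8.

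Peritoneal and heart macrophages place the levels of these genes. The heart cells came from tissue and the cavity cells from lavage, and the part of cell preparation in the heart levels was not tested. Of the 23 genes higher with the block, 16 had their means in the order pericardial, pleural, peritoneal from high to low, and for all 23 the heart mean was above the pericardial one. That pericardial means lay above pleural ones follows from how the 23 were chosen. Among all 8097 tested genes with a pericardial mean above the pleural one, the pleural mean was above the peritoneal one in 41.2% and the heart mean above the pericardial one in 17.5%. Fos averaged 49.9 ± 11.1 RPKM in pericardial, 13.02 ± 0.784 RPKM in pleural, 6.05 ± 2.51 RPKM in peritoneal and 1855 ± 425 RPKM in heart macrophages (SD, n = 4 each). Neighbouring groups did not overlap for Fos. Its log2 fold was 3.02 for pericardial minus peritoneal (adjusted p = 6.9e-07) and 1.15 for pleural minus peritoneal (adjusted p = 0.0387, limma). These 2 comparisons share the peritoneal libraries and called 0.562% and 0.238% of genes higher and, in the pleural one, 0.343% lower. Jun averaged 24.4 ± 4.76 RPKM in pericardial, 10.7 ± 1.99 RPKM in pleural, 7.24 ± 2.57 RPKM in peritoneal and 933 ± 150.3 RPKM in heart macrophages (SD, n = 4 each), and its fold was 1.74 for pericardial minus peritoneal (adjusted p = 0.000158) and 0.60 for pleural minus peritoneal (adjusted p = 0.366). Hspa1a averaged 45.8 ± 25.9 RPKM in pericardial, 20.7 ± 8.66 RPKM in pleural, 5.45 ± 2.26 RPKM in peritoneal and 1834 ± 148 RPKM in heart macrophages (SD, n = 4 each). Lyve1 did not keep this order: peritoneal macrophages, at 17.8 ± 9.35 RPKM (SD, n = 4), were above the pericardial mean of 12.5 RPKM, without a call, and heart macrophages had 214 ± 41.7 RPKM (SD, n = 4). Folr2 in the peritoneal libraries rested on library 2, at 30.6 RPKM, with 4.11, 2.26 and 2.60 RPKM in libraries 3 to 5.

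The authors' deposited table compares the same groups transcript by transcript, as pleural over pericardial. Of 40776 transcripts with a p in the authors' deposited table, 1099 had a p under 0.05 and none a q under 0.05, the lowest q being 0.0624. For Fos the authors' deposited table gives a ratio of 0.267, pleural over pericardial, with p = 4.5e-05 and q = 0.307, the sixth lowest p of the table. For Mir3064 the authors' deposited table gives a ratio of 2.65, p = 3.2e-05 and q = 0.264. The ratios of Jun, Ier3 and Zfp36 in the authors' deposited table are 0.443, 0.513 and 0.528, each with a q of 0.934 or above. Lyve1 has a ratio of 0.540 with p = 0.0726 in the authors' deposited table. The Folr2 transcripts differ in the authors' deposited table, with ratios of 0.599, 1.01 and 0.417 and p of 0.334, 0.981 and 0.128.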

How the data were processed

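RNA of sorted macrophages from the pericardial, pleural and peritoneal cavities and the heart was sequenced, 4 libraries each. Groups and replicate numbers 2 to 5 came from the titles. The submitters' processing notes name TopHat2 2.1.1, Partek 7.18.0723, bcl2fastq 2.17.1 and the build mm10. The authors deposited RPKM per gene, the count of alignments per library (other cells of those sheets were not used), and a table per transcript with p-values, q-values, a ratio, its signed form (treated as a score) and group means on the log2 scale from an analysis of variance, per the file headers. How strand and multiply mapped reads were handled, and the annotation, is not given in the sources used here.

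From the RPKM, log2(RPKM + 0.5) was computed for 10500 genes with RPKM of at least 1 in at least 4 of the 8 pericardial and pleural libraries. Such folds understate changes of genes at low levels. RPKM are not counts, so no count test was run. limma 3.58.1 (R 4.3.3, trended empirical Bayes) took all 16 libraries, 4 group means and 12 residual degrees of freedom. Its two-sided moderated test gave p-values, with Benjamini-Hochberg adjustment over 10500 genes and calls at an adjusted p under 0.05. No 2 libraries held identical values.

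Replicate numbers were checked by correlating deviations from group means: r was 0.197, 0.292, 0.651 and 0.425 for same-numbered pericardial and pleural libraries 2 to 5, all above 0.1, and -0.501 to 0.217 for differently numbered ones, so a fit of the 8 libraries with the number as a block (3 residual degrees of freedom) is given beside the other. The pairing comes from the titles' numbers and this check. The labels do not say what a number marks.

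The members and gene lists were chosen with earlier results of these data known. Named genes were the called ones with groups apart, up to 4 called members of each list or else the 2 most abundant, and a fixed set of identity genes. Mir3064, Ddx5, the genes of the paired fit and further list members were added after their values were seen. Both fits were tested on simulated data. Alternatives are given under the processing section: libraries left out, scaling, pseudocount, filter, variance trend and a chemosensory covariate. The summed chemosensory RPKM, the covariate and the paired alternatives were added after the data were seen.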

Additional observations from a re-analysis of the deposited data

Results flagged for a closer look

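In 14 of 126 groups of 4 libraries examined, the highest or lowest library lay so far from the others that its gap, divided by the group's whole range, exceeded the critical value of Dixon's test at the 95% level. Chance flags about 1 group in 20, and genes of a pathway in the same library are not independent. The part of each library's chemosensory sum or of other cells in these values was not tested.

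Red cell transcripts set pleural library 5 apart. The summed globin level was 226 RPKM in pleural library 5, against 100.4 to 105 RPKM in the other pleural libraries, a gap of 0.962 of the range. Hbb-b1 had 80.6 RPKM in pleural library 5, against 37.6 to 42.1 RPKM in the other pleural libraries, a gap of 0.895 of the range. Hbb-bs had 42.9 RPKM in pleural library 5, against 20.0 to 22.4 RPKM in the other pleural libraries, a gap of 0.895 of the range. Hba-a1 had 40.0 RPKM in pleural library 5, against 16.3 to 19.5 RPKM in the other pleural libraries, a gap of 0.865 of the range. Alas2 had 1.20 RPKM in pleural library 5, against 0.507 to 0.549 RPKM in the other pleural libraries, a gap of 0.939 of the range. Hbb-b1 and Hbb-bs are near-identical, so these are not separate signs.

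MHC class II genes set pleural library 3 apart. H2-Aa had 382 RPKM in pleural library 3, against 103 to 123 RPKM in the other pleural libraries, a gap of 0.928 of the range. Cd74 had 859.7 RPKM in pleural library 3, against 273 to 289 RPKM in the other pleural libraries, a gap of 0.973 of the range. Library 3 was also the highest pericardial library for both genes.

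Pleural library 4 was apart for several stress and identity genes. Egr1 had 5.87 RPKM in pleural library 4, against 1.63 to 2.16 RPKM in the other pleural libraries, a gap of 0.874 of the range. Junb had 135 RPKM in pleural library 4, against 103 to 108 RPKM in the other pleural libraries, a gap of 0.841 of the range. Hspa1b had 13.2 RPKM in pleural library 4, against 39.3 to 44.5 RPKM in the other pleural libraries, a gap of 0.835 of the range. Timd4 had 209.8 RPKM in pleural library 4, against 118 to 133 RPKM in the other pleural libraries, a gap of 0.837 of the range. Hspa1b was low in that library, while Egr1, Junb and Timd4 were high.

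Dusp1 had 182 RPKM in pericardial library 4, against 141 to 148 RPKM in the other pericardial libraries, a gap of 0.833 of the range. Dusp1 had 132 RPKM in pleural library 5, against 94.4 to 98.2 RPKM in the other pleural libraries, a gap of 0.900 of the range. Rgs1 had 3.62 RPKM in pleural library 2, against 4.62 to 4.72 RPKM in the other pleural libraries, a gap of 0.911 of the range.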

How the results depend on the processing

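Fos was called higher in 20 of 21 alternatives and Mir3064 lower in 19. Against 1 gene higher and 1 lower, the fit of the 8 libraries alone called 7 higher and 2 lower, and that with the replicate block 23 higher and 92 lower. No filter on low values called 0 and 0 (Fos had an adjusted p of 0.0507), and a minimum RPKM of 5 called 2 higher. A pseudocount of 0.1 called 2 lower, Mir3064 and Mir5107, the latter passing the filter through its pleural libraries alone. Equal RPKM totals called 2 higher, median-ratio scaling 4 and the chemosensory covariate 2. Leaving out 1 library gave 1 gene higher each time and 0 to 3 lower. The lower count was 0 without pericardial library 2 and 3 without pericardial library 5 (Dancr and Neat1 besides Mir3064). It was 2 without pleural library 5 (Mir5107 besides Mir3064). In the paired fit, leaving out both libraries numbered 2, 3, 4 or 5 gave 15, 34, 36 or 386 higher and 12, 197, 241 or 445 lower, equal RPKM totals gave 4 higher and 0 lower, median-ratio scaling 5 and 0, and the chemosensory covariate 2 and 0. The replicate block with all 16 libraries called 1 and 1. The cause of these shifts was not tested. Over 205 named genes, 158 of 4244 values under alternatives changed sign, and each of these was called in neither fit. The count of called members moved in 17 list settings. No called value was reversed. RPKM give no exact read number per gene, so counting intervals cannot be given, and 4 libraries a group limit the precision.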

Other observations

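Some immediate early and inflammatory genes lay under the filter on low values, so they were not tested, and were chosen after their values were seen. Fosb, an AP-1 subunit, had 0.321, 0.332, 0.487 and 0.374 RPKM in pericardial libraries 2 to 5, against 1.14, 0.872, 0.967 and 0.726 RPKM in pleural libraries 2 to 5. Here every pericardial library was below every pleural one, the opposite of Fos. Il1b, the gene of interleukin 1 beta, had 0.214, 0.384, 0.447 and 0.178 RPKM in pericardial libraries 2 to 5, against 0.634, 0.534, 0.851 and 0.614 RPKM in pleural libraries 2 to 5. Its groups did not overlap either, with pericardial libraries the lower. Ccl4, a chemokine near Ccl3 in sequence and function, had 0.568, 0.542, 0.261 and 0.508 RPKM in pericardial libraries 2 to 5, against 1.10, 0.562, 0.869 and 0.519 RPKM in pleural libraries 2 to 5, with overlapping groups. Egr2, a relative of Egr1, had 0.486, 0.651, 0.339 and 0.259 RPKM in pericardial libraries 2 to 5, against 0.545, 0.434, 0.428 and 0.539 RPKM in pleural libraries 2 to 5, also overlapping. In heart macrophages these genes were abundant, with Fosb at 408 ± 143 RPKM and Il1b at 213 ± 96.6 RPKM (SD, n = 4 each).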
